A study of Oncorhynchus mykiss with 13 samples.

Results

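A group of 122 cDNA clones had a lower normalised ratio in each of 6 maturing rainbow trout females than in any of 7 females sampled before meiosis resumption. They were taken from 9023 clones on the array, of which 8077 were above 0 on all 13 arrays. For 132 of these 8077 clones (1.63%) the highest ratio of the 6 maturing females was below the lowest ratio of the 7 earlier females. The 10 of them that the study had listed by name in its clusters were set aside, and the other 122 are described here. The study named further clones as lower that did not meet this rule. It also called clones lower at maturation without naming them, so some of the 122 may be among those. In the other direction, 144 clones (1.78%) had every maturing female above every earlier one. The clones were chosen by these ratios in the maturing and earlier females, so the difference between these females is given as a description, without a test.

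Whole ovarian tissue was taken from 2-year-old Oncorhynchus mykiss females of an autumn-spawning strain in their first reproductive season, and each female was hybridized on 1 nylon array with 33P-labelled cDNA. Late vitellogenesis was represented by females 2, 3 and 4, post-vitellogenesis by females 13, 14, 15 and 31, and oocyte maturation by females 25 to 30. Females are called here by the numbers in the sample titles, which do not say what the numbers count. The numbers run in blocks by stage, apart from 31 in post-vitellogenesis. The late vitellogenesis females were sampled at the end of yolk uptake, with no visible germinal vesicle, and the post-vitellogenesis females later, before any change of the yolk. The germinal vesicle of female 14 was labelled as peripheral. The maturing females were sampled after yolk clarification, around germinal vesicle breakdown. The labels name no treatment. Each clone has 1 deposited value per array, its signal corrected for the spotted DNA and divided by the median of the array. A ratio of 1 is thus the median of the array.

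During vitellogenesis the oocyte stores yolk while the follicular cells around it secrete estrogens. The oocyte then becomes able to answer the maturation-inducing steroid, its germinal vesicle (the nucleus) moves to the periphery and breaks down, and meiosis resumes. The fully grown oocyte is nearly silent in transcription and relies on stored messengers, many of which are deadenylated or degraded at maturation in Xenopus and mouse, whereas the granulosa and theca cells of the follicle change their steroid synthesis. Whole ovary holds all of these cells together with stroma, vessels and blood. In such tissue fewer cells of a type and less RNA per cell cannot be told apart.

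No gene name is given for any of the 122 clones in the sources used here, so each is called by its clone name and no function is attached to it. Lists of gene families and cell type markers could therefore not be counted among them. The cell types of the tissue could likewise not be checked by their markers, apart from aromatase (cyp19a1), the estrogen-forming enzyme of granulosa cells, whose 2 named clones were among the 10 set aside.

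The differences in array ratio were moderate in size. The median log2 difference of the 122 clones, oocyte maturation minus the 7 earlier females, was -0.54, a ratio 1.46-fold lower in the maturing females, where the median over all 8077 clones was 0.02. The clones ran from 1.14-fold to 2.65-fold lower, with 54 of 122 at 1.5-fold or more and 5 at 2-fold or more. Against post-vitellogenesis alone the median was -0.56, and against late vitellogenesis alone it was -0.53. These comparisons share the 6 maturing females and were both fixed by the choice of the clones.

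**Figure D1:**
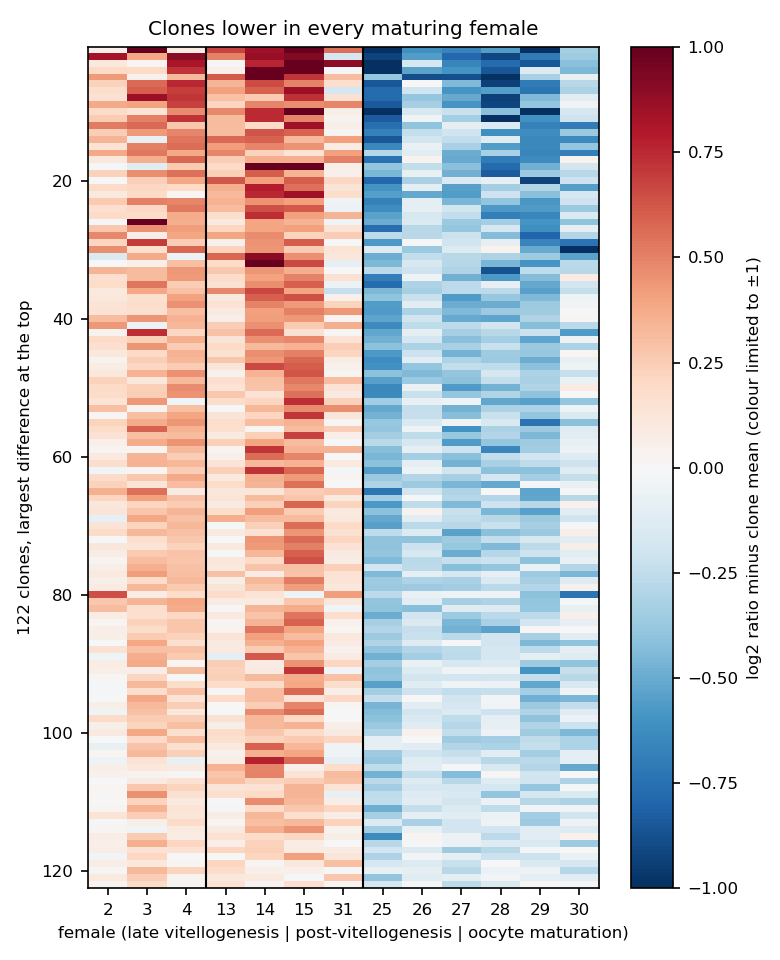
Log2 ratio of each of the 122 clones (rows, the clone with the largest difference at the top) in each female (columns, by stage), minus the mean of the clone over the 13 arrays. Most cells are blue (low) in the 6 maturing females and red (high) in the 7 earlier ones, with the deepest red mostly in females 14 and 15.

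Clone tcaa0002.m.12 had the largest difference. Its ratio ran from 0.553 to 1.09 (median 0.890) in the 6 maturing females, against 1.44 to 3.24 (median 2.22) in the 7 earlier ones, a 2.65-fold lower level. Even the highest maturing female, female 30, lay clearly under the lowest earlier one, female 2 of late vitellogenesis. Next came tcbk0026.d.10, with 0.663 to 0.983 (median 0.750) in the maturing females and 1.11 to 2.38 (median 2.24) in the earlier ones, 2.48-fold lower. Here female 31 of post-vitellogenesis stood apart at 1.11, close to the maturing females, while the other earlier females were at 1.65 or more.

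Clone tcac0001.h.06 was 2.36-fold lower, with 0.435 to 0.849 (median 0.584) in the maturing females and 0.963 to 2.53 (median 1.63) in the earlier ones. The earlier females spread widely for this clone: females 3 and 13 were at 0.970 and 0.963, and female 15 at 2.53. Clone 1RT153N03_B_G02 was 2.16-fold lower, with 1.12 to 2.05 (median 1.53) in maturation and 2.22 to 5.51 (median 2.59) before it. Females 14 and 15 alone reached 4.99 and 5.51, and the other 5 earlier females were between 2.22 and 3.73. Clone tcba0006.d.03 was 2.14-fold lower, with 0.747 to 1.41 (median 0.967) in maturation and 1.52 to 3.18 (median 1.99) before it.

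Below 2-fold, tcac0001.b.02 was 1.99-fold lower and gave a much stronger signal than the clones above. It had 6.06 to 11.5 (median 7.81) in the maturing females and 12.95 to 19.5 (median 16.3) in the earlier ones. The highest of the maturing females was female 26 at 11.5, and the lowest earlier female was again female 31 at 12.95. Clone tcay0020.h.07 was 1.96-fold lower, at 1.07 to 1.59 (median 1.23) against 1.62 to 3.30 (median 2.75), and 1RT47G19_A_D10 was 1.96-fold lower, at 0.767 to 1.36 (median 1.05) against 1.62 to 2.64 (median 1.79). In all of these 8 clones the groups did not overlap, as the choice of the clones requires.

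**Figure D2:**
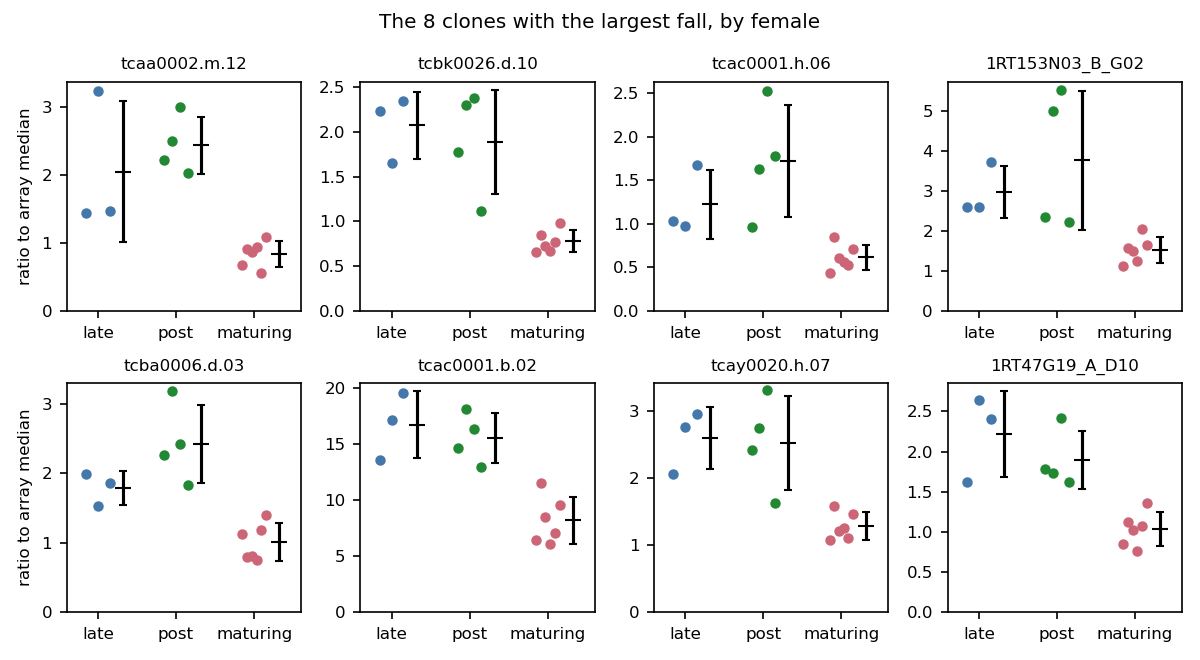
Ratio to the array median of the 8 clones with the largest difference, 1 point per female by stage (3 late vitellogenesis, 4 post-vitellogenesis, 6 maturing), with the mean and SD beside the points. For tcaa0002.m.12 the maturing females sit between 0.553 and 1.09, and the earlier ones between 1.44 and 3.24.

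The distance between the groups was in most clones narrow. The lowest earlier ratio was less than 1.1-fold above the highest maturing one for 91 of the 122 clones, and at least 1.2-fold above it for 4. The widest gap, 1.32-fold, was that of tcay0025.f.01. This clone varied little within groups. Its ratio was 1.67 ± 0.0737 in maturation (SD, n = 6), against 2.55 ± 0.126 in post-vitellogenesis (SD, n = 4) and 2.57 ± 0.2498 in late vitellogenesis (SD, n = 3), so that maturing females were 1.53-fold below earlier ones. The gap was also 1.32-fold for tcaa0002.m.12, and it was above 1.2-fold for tcay0030.m.22, which had 4.97 to 7.21 (median 6.12) in the maturing females and 9.01 to 13.3 (median 10.1) in the earlier ones. A dim clone, tcba0011.b.01, also kept a gap of 1.21-fold, with 0.224 to 0.335 (median 0.318) in maturation and 0.404 to 0.540 (median 0.509) before it.

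Gaps of 1.18-fold to 1.19-fold were found for 1RT47G19_A_D10, 1RT40F17_B_C09, tcbk0049.m.22 and tcbk0021.m.06. Clone 1RT40F17_B_C09 had 0.723 to 1.34 (median 0.979) in maturation and 1.59 to 2.20 (median 1.89) before it, 1.95-fold lower. Clone tcbk0049.m.22 had 0.946 to 1.41 (median 1.14) against 1.67 to 2.19 (median 1.97), 1.73-fold lower. It differed from most of the 122 clones in having its lowest earlier value in female 15 and its lowest maturing value in female 30. Clone tcbk0021.m.06 had 5.03 to 7.97 (median 6.77) against 9.39 to 11.7 (median 11.2), 1.64-fold lower.

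At the edge of the choice, the clones just inside and just outside could hardly be told apart. The narrowest gaps inside were those of tcbk0040.g.18 (highest maturing ratio 1.063 and lowest earlier ratio 1.063, before rounding 1.0627 and 1.0628), 1RT147N15_B_G08 (3.951 and 3.954) and tcba0014.a.23 (0.9551 and 0.9561). Just outside were 1RT50H08_D_D04, where female 30 at 5.2314 touched the lowest earlier female at 5.231, tcay0001.g.03 (0.5313 and 0.531) and tcay0011.h.13 (0.8237 and 0.8229). The 3 clones inside were 1.33-fold to 1.40-fold lower in maturation, and the 3 outside were 1.23-fold to 1.29-fold lower. The ratios thus ran on across the limit without a break.

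The 122 clones tended to be brightly hybridized. Their median ratio over the 13 arrays was 2.96, where it was 1.05 over all 8077 clones, and 46 of the 551 clones with a mean ratio of 4 or more (8.35%) were among them, against 18 of the 3820 clones with a mean ratio under 1 (0.471%). The ratio depends on each cDNA and does not rank the transcripts of different genes. The 5 brightest clones were tcaa0002.d.07, 1RT109G15_A_D08, 1RT74K10_C_F05, 1RT128J07_B_E04 and tcac0001.e.13. On the deposited ratios they were 1.45-fold to 1.93-fold lower in maturation, for example 13.7 ± 1.22 in the maturing females for tcaa0002.d.07 (SD, n = 6), against 20.5 ± 4.10 in post-vitellogenesis (SD, n = 4) and 19.6 ± 1.68 in late vitellogenesis (SD, n = 3). Clone 1RT128J07_B_E04 was the most even of the 5 in maturation, at 10.8 ± 0.560 (SD, n = 6), against 15.5 ± 2.07 in post-vitellogenesis (SD, n = 4) and 16.04 ± 1.03 in late vitellogenesis (SD, n = 3).

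Bright clones as a whole were lower on the maturing arrays. Over all clones, the median log2 difference of maturation minus the earlier females was 0.15 for clones with a mean ratio under 0.5, -0.01 between 1 and 2, -0.15 between 4 and 8, and -0.28 at 8 and over. The share of the clones that belonged to the 122 ran along with it, at 0.310%, 1.15%, 7.13% and 11.8% in the same bands. Each of the 122 clones was lower than the median of its own band, by a median of -0.45 on the log2 scale (1.37-fold), with a range of -1.40 to -0.13. The clones were chosen by the same ratios, so this outcome was largely fixed by the choice and is a description only. When trends with signal were removed by cyclic loess, an alternative added after seeing the data, 69 of the 122 clones still had all maturing females below all earlier ones, and 76 did after quantile normalization. Of the 46 clones with a mean ratio of 4 or more, 13 kept this under both settings, and of the 76 dimmer clones 54 did. Among the 8 clones with the largest difference, 7 kept it under both, and tcba0006.d.03 kept it only after quantile normalization. Among the 5 brightest, 1RT109G15_A_D08 and tcac0001.e.13 kept it under both. The differences of these 5 clones also became smaller. After cyclic loess the log2 difference was -0.25 for tcaa0002.d.07 (-0.55 as deposited), -0.32 for 1RT109G15_A_D08 (-0.62 as deposited), -0.25 for 1RT74K10_C_F05 (-0.54 as deposited), -0.26 for 1RT128J07_B_E04 (-0.54 as deposited) and -0.68 for tcac0001.e.13 (-0.95 as deposited). After quantile normalization it lay between these values for each of the 5 clones, from -0.75 for tcac0001.e.13 to -0.30 for 1RT74K10_C_F05. The median of the 122 clones was -0.44 after cyclic loess and -0.47 after quantile normalization. The part of the trend with signal in the group as a whole was not tested.

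**Figure D3:**
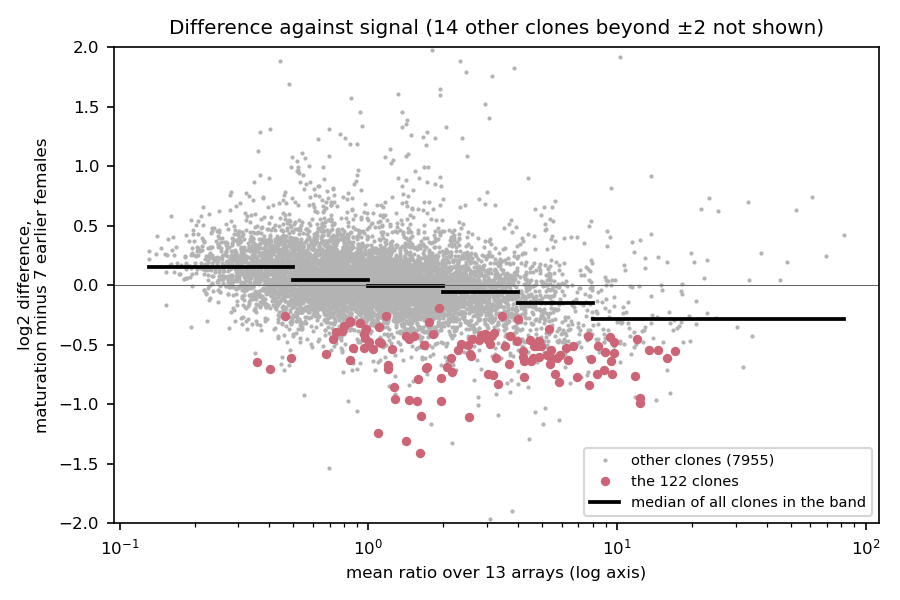
Log2 difference of oocyte maturation minus the 7 earlier females against the mean ratio over 13 arrays (log axis), for the 122 clones (red) and the other 7955 clones (grey), of which 14 beyond 2 on the log2 axis are not drawn, with the median of all clones in 6 bands of ratio as black lines. The lines step down from 0.15 below a ratio of 0.5 to -0.28 above 8. Every red point lies under the line of its band, which the choice of the clones made likely.

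The females differed among themselves in a way that most of the 122 clones shared. The mean over the clones of the log2 ratio, centred per clone, was 0.13, 0.29 and 0.30 in females 2, 3 and 4 of late vitellogenesis. In post-vitellogenesis it was 0.18, 0.41, 0.45 and 0.13 in females 13, 14, 15 and 31, and in oocyte maturation it ran from -0.47 in female 25 to -0.19 in female 26. The spread within the earlier females was thus about as wide as the distance between female 26 and female 31, the closest females of the 2 groups. Female 14 or 15 had the highest earlier value for 82 of the 122 clones (67.2%), where it did so for 32.9% of all clones. Taken singly, female 15 was highest for 51 clones (41.8%, against 9.05% of all clones). Female 14 was highest for 31 (25.4%), near its share of all clones (23.8%). Female 2 or 31 had the lowest earlier value for 83 clones (68.0%), against 31.95% of all clones. For 38 of the 122 clones (31.1%), females 14 and 15 both lay above the other 5 earlier females, against 10.1% of all clones. The choice of the clones used the ratios of these females, and the shares were not taken over bright clones alone.

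**Figure D4:**
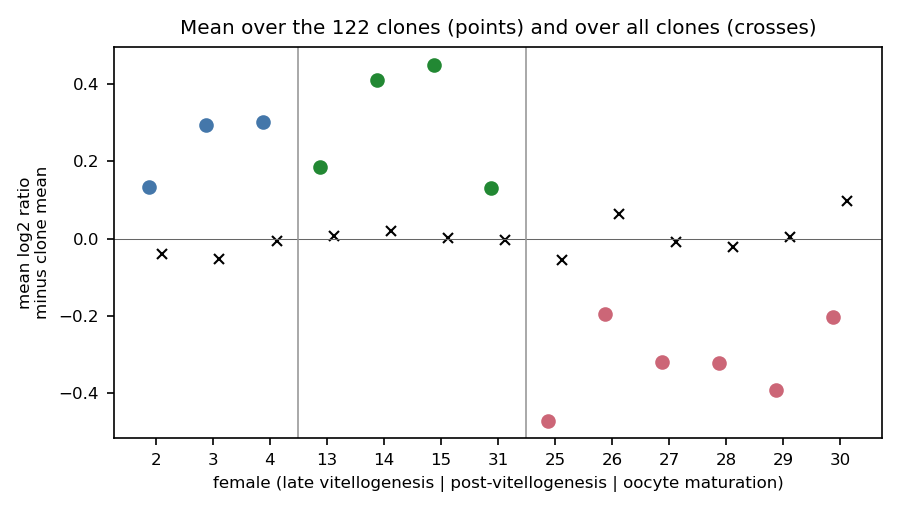
Mean over the 122 clones of the log2 ratio minus the clone mean (points, coloured by stage) and the same over all 8077 clones (crosses), for each female. The points lie between 0.13 and 0.45 in the 7 earlier females and between -0.47 and -0.19 in the maturing ones, and the crosses between -0.06 and 0.10.

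Among the maturing females, female 25 had the lowest value for 57 of the 122 clones (46.7%, against 20.2% of all clones). Female 26 or 30 had the highest value for 83 clones (68.0%, against 56.5% of all clones), so these 2 females set the limit for most of the group. Their arrays also had the most clones listed at 0 (725 and 751, against 377 to 550 on the other 11 arrays) and the highest mean over all clones (0.06 and 0.10 on the centred log2 scale, against -0.06 to 0.02). Without female 26 the same rule took 194 unlisted clones, without female 30 it took 249, and without both it took 416, which was added after seeing the data. Without female 31, the lowest earlier female for 50 of the 122 clones, it took 189. All 122 clones stayed in each of these sets, as they must when a female is removed. The part of these arrays in the size of the group was not tested.

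Within the earlier females many of the 122 clones varied together. The ratios of these females were also used to choose the clones, and the profile they are set against is the mean of the clones themselves, so the contrast with other clones is a description and no independent feature of the group. Over the 7 earlier females, the correlation of a clone with the mean of the other 121 had a median of 0.71, and 93 of 122 clones (76.2%) were above 0.5. Some clones ran the other way, such as tcbk0040.g.18 (r = -0.83) and tcbk0049.m.22 (r = -0.70). For the other 7955 clones, set against the mean of the 122, the median was -0.01 and 20.1% were above 0.5, and for the 505 of them with a mean ratio of 4 or more it was 0.51, with 51.5% above 0.5. Within the 6 maturing females the median was 0.65 for the 122 clones, 0.25 for the others and 0.12 for the bright others. These correlations rest on 7 and 6 females whose arrays are shared by all clones.

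Some pairs of clones had nearly the same profile. Of 7381 pairs, 1RT48D22_D_B11 and 1RT54I22_C_E11 were the closest, since the log2 ratio of one to the other varied by an SD of 0.04 over the 13 females, where the median pair had 0.24. In maturation they had 3.45 to 4.49 and 3.44 to 4.52, and in the earlier females 4.81 to 7.13 and 4.84 to 7.35. A pair with a strong signal, tcac0001.b.02 and tcac0001.e.13, was at rank 23 with an SD of 0.08. As read from their names, both came from source plate tcac0001. Their ratios were 1.99-fold and 1.93-fold lower in maturation, with the highest maturing value in female 26 for both. Whether the clones of a pair come from 1 gene is not given in the sources used here, so the 122 clones may stand for fewer genes.

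By name, 50 of the 122 clones (40.98%) belonged to the 1RT set, which made up 35.7% of the 8077 clones, and 72 (59.0%) to the tc sets. The tcac set gave 10 clones of 269 (3.72%), tcaa 4 of 98 (4.08%) and tcab 3 of 89 (3.37%). The largest tc set, tcbk, gave 19 of 1814 (1.05%), against 1.39% over all tc sets and 1.73% of the 1RT set. Some sets of few clones had higher shares, such as tcah with 2 of 12. The clones came from 90 of 330 source plates as read from their names, with 63 plates giving 1 clone and at most 4 from a single plate, tcac0001.

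Post-vitellogenesis was also compared with late vitellogenesis, both before meiosis resumption. The choice of clones did not use this difference itself, but it required the females of both stages to lie above all maturing females, so clones that were already low in post-vitellogenesis could not be among the 122. The values below therefore describe the chosen clones and do not show independently when their ratios changed. No member of the group passed the test (limma, adjusted over the 8077 clones, 0 of 122, lowest adjusted p = 1.0), and 3 had an unadjusted p under 0.05, all higher in post-vitellogenesis. Over all clones, limma called 2 (0.0248%), both higher in post-vitellogenesis. An unadjusted p under 0.05 was found for 240 clones of the array (2.97%), with 182 higher (2.25%) and 58 lower (0.718%) in post-vitellogenesis. The SAM-style test also called 0 of the 122 clones. The median log2 difference of the group, post-vitellogenesis minus late vitellogenesis, was 0.03, the same as over all clones (0.03). The mean was higher in post-vitellogenesis for 72 of the 122 clones (59.0%) and for 59.6% of all clones. The 4 and 3 females of these stages limit the size of change that the test can detect.

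**Figure D5:**
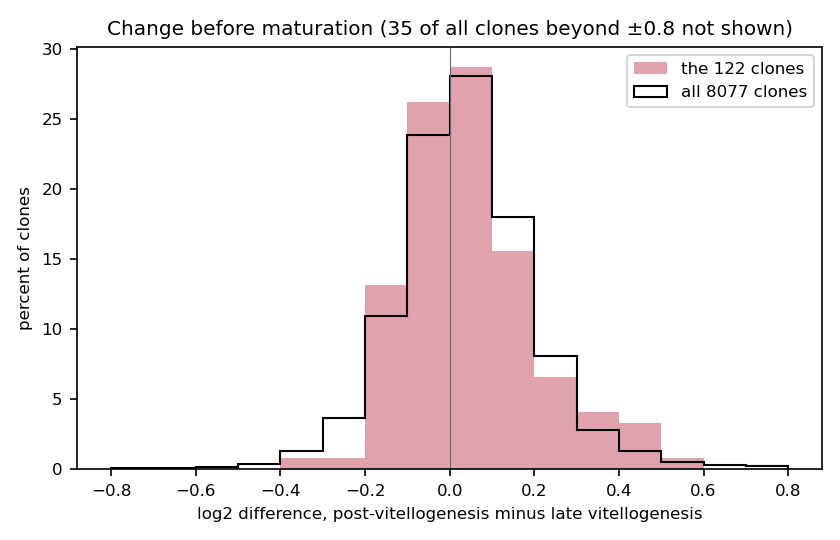
Distribution of the log2 difference of post-vitellogenesis minus late vitellogenesis, as percent of clones, for the 122 clones (red, filled) and for all 8077 clones (black line). Both are centred near 0.03, and the 122 clones run from -0.32 to 0.55.

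The clones with the largest differences at this step were not called either. Clone 1RT89M01_A_G01 had 4.50, 8.25, 8.06 and 4.08 in post-vitellogenesis females 13, 14, 15 and 31, and 3.87, 3.598 and 4.71 in late vitellogenesis females 2, 3 and 4. Its log2 difference was 0.55 (standard error 0.22, adjusted p = 1.0 from limma), and females 14 and 15 alone stood out. Clone tcay0024.o.24 had 2.45, 3.08, 2.26 and 1.79 in post-vitellogenesis and 1.49, 2.14 and 1.59 in late vitellogenesis, a log2 difference of 0.45 (standard error 0.17, adjusted p = 1.0 from limma), with female 31 inside the late range. The log2 difference of tcac0001.h.06 was 0.46 (standard error 0.28, adjusted p = 1.0 from limma).

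In the other direction, tcac0002.m.24 had 2.20, 2.69, 2.59 and 1.995 in post-vitellogenesis and 2.03, 4.72 and 2.63 in late vitellogenesis, a log2 difference of -0.32 (standard error 0.21, adjusted p = 1.0 from limma). This value rested on female 3, and without it the log2 difference was 0.024. Clone 1RT47G19_A_D10 had -0.22 (standard error 0.20) and tcad0009.b.20 had -0.20 (standard error 0.13), neither past the test. For tcad0009.b.20 all 4 post-vitellogenesis females, at 1.045 to 1.192, lay below the 3 late females, at 1.194 to 1.290, and it was the only one of the 122 clones to show this (0.820%, against 1.30% of all clones). The reverse, all post-vitellogenesis females above all late ones, held for 3 of the 122 clones (2.46%, against 3.63% of all clones): tcad0006.g.21, tcba0014.a.23 and 1RT47E13_A_C07.

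The timing of the difference was read as the share of the log2 difference between late vitellogenesis and maturation that was already present in post-vitellogenesis. This share was under 0.25 for 117 of the 122 clones, between 0.25 and 0.5 for 5, and never above 0.5. It was below 0 for the 72 clones with a higher mean in post-vitellogenesis. Since each clone was chosen to be higher in all post-vitellogenesis females than in all maturing ones, large shares were made less likely by the choice.

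The 10 named clones that met the same rule give a scale for these values on the arrays. They are a list the study chose on the same arrays. All 10 belong to a cluster that the study described partly by its intermediate or variable post-vitellogenesis values. Their shares of the difference at that stage, given below, were therefore partly set by that choice and are a description only. Aromatase was 12.2-fold lower (tcbk0013.n.16) and 5.78-fold lower (tcac0004.f.21) in the maturing females, and cmah (tcbk0034.l.08), an enzyme of sialic acid metabolism, was 5.18-fold lower. Real-time PCR in the study, with further females included, gave a far larger fall of aromatase from late vitellogenesis to maturation. On the arrays, the log2 difference for that step was -4.64 and -3.47. Folds of array ratios may thus be smaller than the changes in transcript. The others, similar to a sulfotransferase, tropomyosin 4, a microsomal dipeptidase, the collagen chaperone HSP47, a signal peptide peptidase, a chaperonin subunit and an unknown protein, were 1.37-fold to 2.08-fold lower, within the range of the 122 clones. The median was 1.69-fold over the 10 and 1.46-fold over the 122. The share of the difference present in post-vitellogenesis was 0.39 and 0.47 for the aromatase clones and 0.41 for the sulfotransferase-like clone (tcay0023.a.19). These 3 were above all 122 clones, whose highest share was 0.36. The share was between 0.25 and 0.5 for 4 of the 10 clones and for 5 of the 122. With the mean profile of the 122 clones over the 7 earlier females, the aromatase clones had a correlation of 0.20 and 0.19. The 10 clones ran from -0.04 to 0.92, the highest being the HSP47-like clone (1RT146H05_B_D03). Over the 6 maturing females, the 10 clones ran from -0.43 (tcbk0039.a.06) to 0.79 (tcay0023.a.19). The HSP47-like clone had -0.38 there and the aromatase clones 0.31 and 0.0006.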

How the data were processed

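The authors hybridized 33P-labelled cDNA of 13 ovaries to nylon arrays with clones spotted in duplicate, left out spots with a low vector oligonucleotide signal, corrected each spot for its DNA, and deposited the ratio of the signal to the median of the array. Images had been quantified with ArrayGauge software. The median over all 9216 deposited rows was 1 on every array, so no scaling was added. Values of 0 count in this median, and clones at 0 were most frequent in females 26 and 30 (725 and 751). The clones above 0 therefore need not share 1 centre across arrays. Re-centring each array on the median of the 8077 clones used was run as an alternative. Of the clones, 280 had only values of 0 and 666 had a 0 on part of the arrays, and the 8077 clones above 0 on all arrays were used, on the log2 scale without pseudocount. Within a stage, arrays correlated at 0.913 to 0.981, and no 2 arrays were identical. The number of females per stage limits the precision.

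Stages came from the sample labels, and each female is 1 separate fish. Post-vitellogenesis was compared with late vitellogenesis with limma 3.58.1 in R 4.3.3 over all 13 arrays in 3 groups (lmFit, eBayes, two-sided, Benjamini-Hochberg over 8077 clones, threshold 0.05), in place of the SAM software of the methods, and the script was tested on simulated data. No test was made between maturing and earlier females, which chose the clones. Clones were named by rule: the 8 with the largest difference, the 8 with the widest gap, the 5 brightest, the 3 highest and 3 lowest in post-vitellogenesis minus late vitellogenesis, and the 3 on either side of the limit. Clones of a pair and those cited as exceptions were chosen after their values were seen. The members, lists and rules were chosen with earlier results of these data known. Alternatives were quantile normalization, re-centring, a filter on dim clones (median ratio under 0.5), log2(ratio + 0.1) with and without clones at 0, the earlier females alone, array weights, a SAM-style statistic over all 35 label arrangements, a threshold of 0.1 and each female left out. Cyclic loess and the removal of 2 females together were added after seeing the data. A table of RefSeq genes was not used, since it holds no clone names.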

Additional observations from a re-analysis of the deposited data

Results flagged for a closer look

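In 54 groups of 4 or 6 females, the ratios of the 26 named clones and the mean over the 122 clones were searched for a single female far from the others, and 2 groups had one, where chance gives about 1 in 20. For 1RT40F17_B_C09, female 13 was at 1.59 in post-vitellogenesis, below the other 3 females at 1.89 to 1.92. For tcad0009.b.20, female 15 was at 1.19 in post-vitellogenesis, above the other 3 at 1.05 to 1.07.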

How the results depend on the processing

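The number of unlisted clones lower in every maturing female, 122 with all females, was 126 to 249 with 1 female left out, and the number of all such clones, 132 with all females, was 136 to 260. The highest counts came without female 30 (249 and 260), female 26 (194 and 206) and female 31 (189 and 219), and they were 416 and 431 without females 26 and 30. Quantile normalization gave 147 unlisted clones, of which 76 were among the 122, re-centring gave 183 with 116 of them, and cyclic loess gave 115 with 69 of them. The median log2 difference of the 122 clones in maturation stayed between -0.62 and -0.44 over these settings. All 545 values of the 26 named clones stayed below 0, and 6 of them moved by more than the SD between females, all toward 0 and all in bright clones: 1RT109G15_A_D08 (-0.32) and tcaa0002.d.07 (-0.25) under cyclic loess, and 1RT128J07_B_E04 (-0.26 and -0.35) and 1RT74K10_C_F05 (-0.25 and -0.30) under cyclic loess and quantile normalization. Between post-vitellogenesis and late vitellogenesis, none of the 122 clones was called by limma or the SAM-style test in any setting. The threshold of 0.1 was applied to the main fit only. Over the whole array, the 2 clones called higher became 0 with all clones on log2(ratio + 0.1), 14 with array weights, 1 with the filter on dim clones, 1 with the earlier females alone, 0 without females 14 and 15, and 0 to 3 with 1 female left out (0 without female 4, and 1 without female 3, 13 or 14). The 0 called lower became 2 with all clones on log2(ratio + 0.1), 8 with array weights, and 0 to 2 with 1 female left out (2 without female 15). The log2 difference of tcac0002.m.24 at this step, -0.32 with all females, ran from -0.58 to 0.024 with 1 female left out, and it was 0.024 without female 3. No paired analysis was possible because each stage has its own females.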

Other observations

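A further 9 unlisted clones had all maturing females below all earlier ones but were listed at 0 in 1 to 4 of the maturing females, always including female 30, and so were not counted among the 122. For tcba0010.o.11 and tcba0014.h.05, 4 of 6 maturing females were at 0 and the others at most 0.917 and 0.819, while the 7 earlier females ran from 0.942 to 1.41 and from 0.954 to 1.48. A 0 here can be a spot that was left out by the authors' filter, so no fold is given. The 96 unlisted clones that were higher in every maturing female were dimmer than the 122: their median ratio over the 13 arrays was 0.702, and they made up 2.01% of the clones with a mean ratio under 0.5 and 0.694% of those at 8 and over.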
